A study of Homo sapiens with 26 samples.

Results

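Genes of the G2-M switch and of mitosis were followed in 3 human lung cancer cell lines exposed to Omomyc or to its vehicle. The set is a list of 51 gene symbols grouped by role, and all 51 were found among the 17687 genes of the deposited log2 expression table, each with 1 probe set. In H1299 cells 8 of the 51 fell with Omomyc and 1 rose, where 4.52% of all genes fell and 4.35% rose. The largest of these changes were the falls of the kinetochore genes NDC80 and SPC25, and the gene that rose was the phosphatase gene CDC25B. In H1975 cells 2 rose and 1 fell, where 5.57% of all genes rose and 6.28% fell. With a block for array sets more of the 51 passed there, as did more of all genes. In A549 cells none passed the test, where 0.916% of all genes rose and 0.277% fell. The transcripts of the cyclin B-CDK1 kinase itself did not pass the test in any line without a block for array sets.

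The study used 26 microarrays, each with the RNA of 1 sample. NCI-H1975 (H1975), labelled as lung adenocarcinoma, had 4 arrays of cells given phosphate-buffered saline (PBS) and 5 of cells given Omomyc. A549, labelled as lung carcinoma, had 4 and 3, and NCI-H1299 (H1299), with the same label, had 5 and 5. Omomyc, a miniprotein made from the dimerization domain of MYC that can take the place of MYC beside MAX and at DNA, was added to the medium at 12.8 µM. The labels name no engineered allele, all cells grew in the same serum-containing medium, and how long cells were exposed was not stated. PBS was the only control, so what Omomyc does and what another protein in the medium would do cannot be told apart. The arrays of a group are labelled as biological replicas and nothing else says whether cultures were separate, so each p-value speaks of the spread among arrays only, which may be technical, and the number of arrays limits the precision.

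All values are log2 expression, changes are log2 differences of Omomyc minus PBS followed by ± and the standard error of the fit, and a gene is said to rise or fall where the Benjamini-Hochberg adjusted p over all 17687 genes was under 0.05. Background probe sets had means between 2.34 and 6.69, and 46 of the 51 genes lay above 6.69 on average in every group. CDC25C, NDC80, SPC25 and ESPL1 lay below it in both A549 groups, SPC25 and ESPL1 in both H1975 groups, and SPC25 and MYBL2 in H1299 with Omomyc, so a change that ends there is compressed. The whole-array distributions of values fell into 3 sets of 9, 10 and 7 arrays, called runs here. The labels name no such sets, and what made them is unknown. Every run held PBS and Omomyc arrays of each line, but for A549 in run 3, where PBS stood alone. The keratin gene KRT8 was at 13.69 to 17.55 in the 6 groups, whereas the epithelial genes EPCAM (3.92 with PBS) and CDH1 (3.33 with PBS) were at background in H1299, CDH1 (3.93 with PBS) was at background in H1975, the lung lineage factor gene NKX2-1 rose above background in H1975 alone (7.54 with PBS), and NAPSA and SFTPB were at background throughout. Of the 3 leukocyte genes measured, PTPRC and CD3E were at background in all groups, and CD68, a lysosomal gene of macrophages, was above it in all, at 9.09 in A549 with PBS and up to 14.35 in H1975 with Omomyc, where it rose by 1.49 ± 0.23 (adjusted p = 2.99e-05). The fibroblast collagen genes COL1A1 (9.44 with PBS, 8.30 with Omomyc) and COL1A2 (8.05 and 7.32) were above background in H1975 only and did not pass the test, while the other fibroblast genes and the 4 endothelial genes were at background throughout. The part of CD68 and the collagens in the results below was not tested.

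The commitment to mitosis is made by CDK1 bound to cyclin B, which CDC25 phosphatases switch on and which PLK1 and the Aurora kinases help to amplify. Kinetochores then tie chromosomes to spindle microtubules, the spindle checkpoint holds back the anaphase-promoting complex (APC/C) until every chromosome is attached, and the APC/C with CDC20 then destroys securin and cyclin B. Transcripts of these genes accumulate together late in the cell cycle, under the MuvB complex with the factors MYBL2 (B-MYB) and FOXM1, and they are the usual signature of proliferation in tumours. In bulk RNA, fewer cells in G2 or mitosis and less RNA per such cell cannot be told apart.

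The promoters of these genes are known for a pair of elements, the cell cycle genes homology region (CHR), which the MuvB complex binds, and the CCAAT box, which the factor NF-Y binds. RefSeq windows of 300 bases on GRCh38.p14, from 250 bases before to 50 after an annotated start, were found for 43 of the 51 genes, 55 windows in all. Windows of 1 gene can overlap, as those of PTTG1 do, so a match can count more than once. AURKA, BIRC5, BUB3, FOXM1, RACGAP1, TPX2, TTK and UBE2C had none. The windows were searched on both strands for the CHR core TTTGAA, for the NF-Y box CCAAT and for the E-box CACGTG, which MYC and MAX bind and which reads the same on both strands. CCAAT can overlap itself on opposite strands. TTTGAA was in 34 of 55 windows (61.8%) against 15.2% of all 35116 windows of the table, CCAAT in 41 (74.5%) against 34.6%, and both in 28 (50.9%) against 5.9%. The E-box was in 6 windows (10.9%) against 7.26% of all, those of ANLN, CCNB1, CENPE, CENPF, MYBL2 and PLK1. A match is a description of these letters, not a bound site. The 7 windows below are those of cyclin B1, of 3 genes that fell in H1299 with the largest changes (SPC25, NDC80 and MYBL2) and of the 3 genes that rose in any line (CDC25B in H1299, NEK2 and PTTG1 in H1975), each given 5′ to 3′ along its gene, with CHR, NF-Y box and E-box matches of either strand in capitals.
CCNB1: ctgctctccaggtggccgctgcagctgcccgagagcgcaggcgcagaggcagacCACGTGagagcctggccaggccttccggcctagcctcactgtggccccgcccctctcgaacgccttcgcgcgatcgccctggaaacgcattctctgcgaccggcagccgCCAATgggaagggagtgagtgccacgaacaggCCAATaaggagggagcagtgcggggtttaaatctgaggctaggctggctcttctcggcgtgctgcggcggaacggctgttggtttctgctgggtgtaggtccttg
SPC25: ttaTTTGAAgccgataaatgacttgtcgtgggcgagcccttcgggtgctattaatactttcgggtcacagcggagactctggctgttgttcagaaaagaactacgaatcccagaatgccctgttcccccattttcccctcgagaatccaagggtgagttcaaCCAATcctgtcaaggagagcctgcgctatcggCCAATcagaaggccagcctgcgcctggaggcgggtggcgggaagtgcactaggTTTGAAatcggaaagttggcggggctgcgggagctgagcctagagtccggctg
NDC80: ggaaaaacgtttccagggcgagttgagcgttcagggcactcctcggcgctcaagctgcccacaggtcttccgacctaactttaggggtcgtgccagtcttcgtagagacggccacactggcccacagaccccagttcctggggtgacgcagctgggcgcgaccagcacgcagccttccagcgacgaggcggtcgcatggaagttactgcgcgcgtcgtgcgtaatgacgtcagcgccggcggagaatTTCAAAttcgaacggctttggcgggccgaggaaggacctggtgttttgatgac
NEK2: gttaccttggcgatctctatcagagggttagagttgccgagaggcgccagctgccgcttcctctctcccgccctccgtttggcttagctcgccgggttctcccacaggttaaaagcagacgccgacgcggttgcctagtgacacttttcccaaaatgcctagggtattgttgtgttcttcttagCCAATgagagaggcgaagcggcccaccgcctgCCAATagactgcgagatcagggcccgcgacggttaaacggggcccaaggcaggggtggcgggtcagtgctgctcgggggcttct
PTTG1: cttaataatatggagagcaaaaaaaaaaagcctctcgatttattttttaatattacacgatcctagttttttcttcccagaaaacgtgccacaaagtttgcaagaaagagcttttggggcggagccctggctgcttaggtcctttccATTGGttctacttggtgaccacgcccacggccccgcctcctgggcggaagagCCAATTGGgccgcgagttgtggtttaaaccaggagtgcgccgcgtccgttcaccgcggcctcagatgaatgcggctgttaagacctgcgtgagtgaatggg
CDC25B: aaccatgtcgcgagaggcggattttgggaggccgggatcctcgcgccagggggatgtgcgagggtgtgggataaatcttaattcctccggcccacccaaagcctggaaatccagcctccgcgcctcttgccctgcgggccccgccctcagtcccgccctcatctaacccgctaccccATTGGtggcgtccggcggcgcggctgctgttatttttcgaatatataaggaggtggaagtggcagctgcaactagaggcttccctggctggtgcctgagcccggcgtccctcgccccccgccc
MYBL2: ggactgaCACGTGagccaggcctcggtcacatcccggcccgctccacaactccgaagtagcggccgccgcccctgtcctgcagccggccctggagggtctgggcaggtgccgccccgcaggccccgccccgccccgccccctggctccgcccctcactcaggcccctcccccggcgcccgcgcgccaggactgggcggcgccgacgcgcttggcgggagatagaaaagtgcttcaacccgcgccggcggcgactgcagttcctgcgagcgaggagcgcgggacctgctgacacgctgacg

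These windows lie at chr5:69166900-69167199 (plus strand, CCNB1), chr2:168890381-168890680 (minus strand, SPC25), chr18:2571307-2571606 (plus, NDC80), chr1:211675572-211675871 (minus, NEK2), chr5:160421605-160421904 (plus, PTTG1), chr20:3796060-3796359 (plus, CDC25B) and chr20:43666864-43667163 (plus, MYBL2). SPC25 and NDC80 both had a CHR core whose first base was 3 bases before the start, and SPC25 had another at position -247 and CCAAT boxes at -88 and -56. NEK2, PTTG1 and CDC25B had CCAAT boxes and no TTTGAA in the windows shown, and MYBL2, which fell, had neither of them and an E-box at -243. The CDC25B windows at chr20:3786701-3787000 and chr20:3799798-3800097, not shown, had neither CCAAT nor TTTGAA. Only the exact letters were searched, so a variant of the CHR core would be missed. CCNB1 had CCAAT boxes at -87 and -55 and an E-box at -196. Over the 43 genes, 33 of 46 CHR matches began within 60 bases of a start. The 12 genes without TTTGAA in any window were AURKB, BUB1, CCNA2, CCNB1, CDC25B, CENPE, KIF20A, KIF2C, MYBL2, NEK2, PTTG1 and SPC24, and they include genes that rose, that fell and that did not pass the test.

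**Figure D1:**
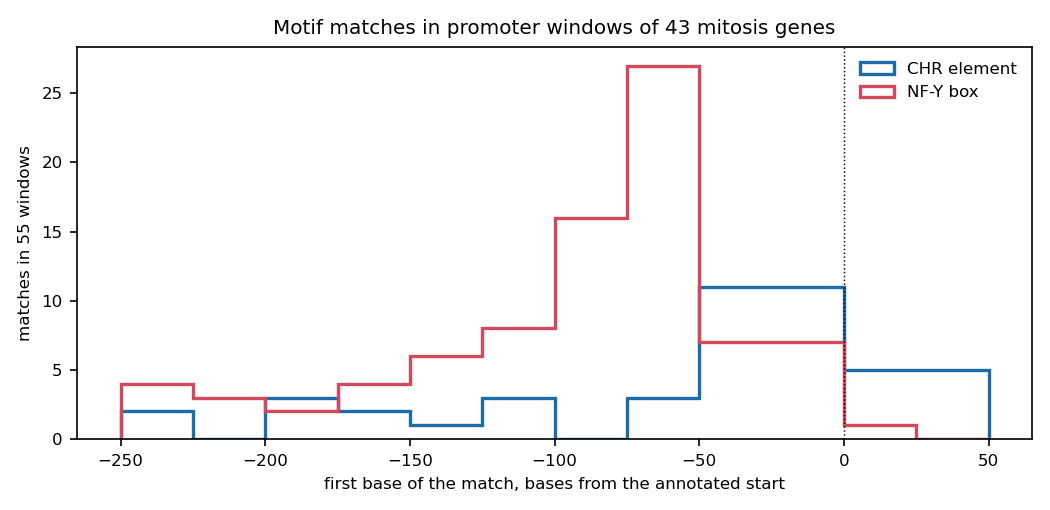
Number of motif matches (vertical axis) by distance in bases of the first base of the match from the annotated start (horizontal axis, dotted line at the start) in the 55 promoter windows of 43 mitosis genes. Blue is the CHR core and red the CCAAT box bound by NF-Y. CHR matches gather at the start, with 33 of 46 within 60 bases of it, while CCAAT matches are most frequent between 50 and 100 bases before it.

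With PBS alone the lines differed in most of these genes. H1299 had the highest levels and A549 the lowest: the order of mean levels H1299 over H1975 over A549 held for 31 of 51 genes (60.8%) and for 19.9% of all genes. Against A549, 30 of 51 were higher in H1975 and 1 was lower, where 20.3% and 18.0% of all genes were. Compared with H1299, A549 was lower in 41 and higher in 2 (22.5% and 19.0% of all genes), and H1975 was lower in 27 and higher in 6 (20.8% and 21.2%). The median difference of the 51 genes was 0.90 for H1975 minus A549, -0.88 for H1975 minus H1299 and -1.42 for A549 minus H1299, beside 0.07, -0.02 and -0.10 over all genes. These PBS comparisons share control arrays with each other.

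The kinetochore genes differed between lines by wide margins. NDC80, the microtubule-binding subunit of the outer kinetochore, had PBS means of 10.41 ± 0.49 (SD, n = 5) in H1299, 7.97 ± 0.64 (SD, n = 4) in H1975 and 4.91 ± 0.44 (SD, n = 4) in A549, where it lay in the range of the background probe sets. The A549 minus H1299 difference was -5.50 ± 0.32 (adjusted p = 1.09e-14). SPC24, a partner in the same complex, was instead highest in H1975, at 11.56 ± 0.44 (SD, n = 4), with 10.05 ± 0.72 (SD, n = 5) in H1299 and 7.16 ± 0.49 (SD, n = 4) in A549, and H1975 minus A549 was 4.40 ± 0.33 (adjusted p = 4.25e-12). Of the 7 kinetochore genes 6 were higher in H1975 than in A549 and 6 lower in A549 than in H1299, with CENPA, the histone variant of centromeres, as the exception in both.

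The checkpoint kinase TTK and the motor KIF2C followed the general order. The checkpoint kinase gene TTK was at 12.71 ± 0.14 (SD, n = 5) in H1299, 10.82 ± 0.36 (SD, n = 4) in H1975 and 9.13 ± 0.51 (SD, n = 4) in A549. KIF2C, a microtubule-depolymerizing kinesin, was at 10.71 ± 0.41 (SD, n = 5), 7.79 ± 0.79 (SD, n = 4) and 6.92 ± 0.33 (SD, n = 4) in the same lines. A549 was lower than H1299 in all 7 motors, all 7 spindle and centrosome genes and all 4 genes of the APC/C and separase group, CDC20 among them at -3.37 ± 0.31 (adjusted p = 2.24e-10).

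A few genes departed from this order. CDC25B, a phosphatase that activates CDK1, was highest in A549 (13.12 ± 0.15, SD, n = 4) and lowest in H1299 (10.74 ± 0.46, SD, n = 5), and A549 minus H1299 was 2.38 ± 0.23 (adjusted p = 6.40e-10). ECT2, the exchange factor that activates RhoA for the cleavage furrow, was at -2.68 ± 0.24 for H1975 minus A549 (adjusted p = 2.16e-10), the only gene of the 51 called in that direction. ANLN, the anillin gene of the contractile ring, was higher in H1975 than in A549 by 3.21 ± 0.20 (adjusted p = 4.33e-14). MYBL2 was higher in H1975 than in H1299 by 1.78 ± 0.36 (adjusted p = 0.00014). TOP2A, CENPA and CKS2 passed the test in none of the 3 PBS comparisons.

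**Figure D2:**
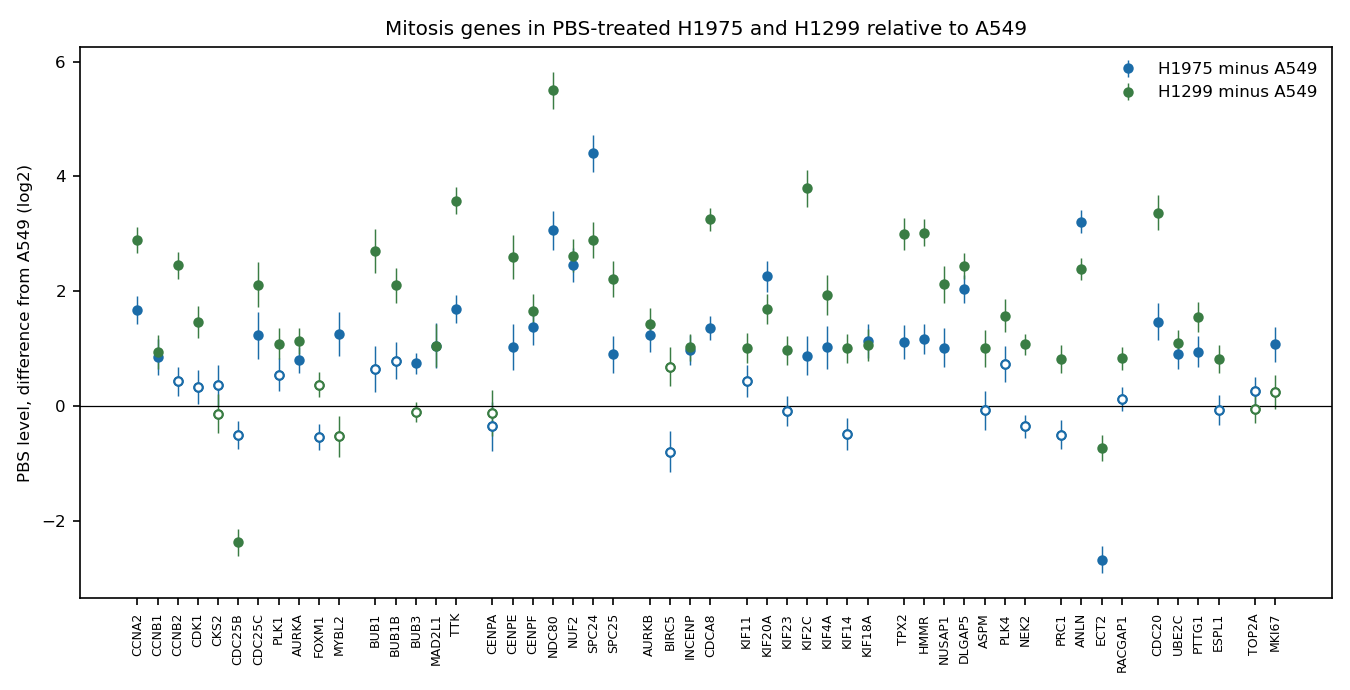
PBS level of each of the 51 genes in H1975 (blue) and H1299 (green) as a log2 difference from A549 (vertical axis), with genes in order of role along the horizontal axis. Points are fitted differences, bars their standard errors, and filled points have an adjusted p under 0.05. Most points lie above 0, NDC80 is the highest in H1299 and SPC24, at 4.40, in H1975, and CDC25B and ECT2 lie below 0.

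In H1299, Omomyc lowered the level of 8 of the 51 genes and raised 1, where 4.52% of all genes fell and 4.35% rose. The median change of the 51 genes was -0.35, beside 0.00 for all genes, and 45 of 51 changes were below 0. The mean of the 51 genes was between 10.80 and 11.42 on the PBS arrays and between 10.38 and 10.94 on the Omomyc arrays, so the 2 groups overlapped. Within runs 1, 2 and 3 the median change was -0.22, -0.55 and -0.40. With the run as a block 17 fell and 1 rose (8.17% and 7.73% of all genes). With the replicate number as a block, which treats same-numbered arrays as pairs, 13 fell and 1 rose (6.45% and 6.21%).

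The largest falls were in the NDC80 complex, the rod that couples kinetochores to microtubules. NDC80 read 10.71, 10.89, 10.68, 9.90 and 9.86 on the H1299 PBS arrays and 9.12, 9.43, 9.19, 8.25 and 8.30 on the Omomyc arrays. Every Omomyc array was below every PBS array, and the change was -1.56 ± 0.30 (adjusted p = 0.000881), a 2.94-fold lower level. In runs 1, 2 and 3 it was -1.60, -1.48 and -1.61. SPC25 read 7.59, 7.60, 7.92, 7.84 and 8.21 with PBS and 6.5, 6.40, 6.07, 6.37 and 6.10 with Omomyc. The groups did not overlap, the change was -1.54 ± 0.29 (adjusted p = 0.000618), and the Omomyc values lay in the range of the background probe sets. SPC24 also showed no overlap between groups but did not pass the test without a block (-0.84 ± 0.30, adjusted p = 0.0758, 0.0201 with the run as a block and 0.0806 with the replicate block). Its change was uneven, at -0.26, -1.7 and -0.28 in runs 1, 2 and 3. NUF2, the remaining subunit, was at -0.24 ± 0.27 (adjusted p = 0.749). Thus 2 of the 4 subunit genes fell. CENPA, CENPE and CENPF were at -0.65, -0.48 and -0.62 and did not pass.

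MKI67, the gene of the Ki-67 protein that coats mitotic chromosomes, read 12.35, 12.20, 12.40, 12.44 and 11.92 with PBS and 11.49, 11.35, 11.13, 11.23 and 10.78 with Omomyc in H1299. The groups did not overlap and the change was -1.07 ± 0.27 (adjusted p = 0.0106). TOP2A, the topoisomerase that untangles sister chromatids, was at -0.49 ± 0.22 and did not pass (adjusted p = 0.216). BIRC5, which encodes survivin of the chromosomal passenger complex, read 10.96, 11.29, 11.42, 10.20 and 10.21 with PBS against 10.11, 10.11, 10.10, 9.47 and 8.94 with Omomyc. All Omomyc arrays lay below all PBS arrays, and the change was -1.07 ± 0.32 (adjusted p = 0.0343). The other passenger genes AURKB, INCENP and CDCA8 did not pass.

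MYBL2, the B-MYB factor that works with MuvB at late cell cycle promoters, read 7.52, 8.61, 7.68, 6.43 and 7.33 with PBS and 5.86, 6.61, 6.46, 6.71 and 5.90 with Omomyc in H1299. The groups overlapped through PBS replicate 4, and the change was -1.20 ± 0.34 (adjusted p = 0.0206), with an Omomyc mean of 6.31 in the range of the background probe sets. ASPM, a spindle pole protein gene, changed by -1.0 ± 0.30 (adjusted p = 0.0347), with PBS arrays from 9.87 to 10.96 and Omomyc arrays from 8.75 to 10.35. DLGAP5, a microtubule-stabilizing factor of the spindle, changed by -0.72 ± 0.21 (adjusted p = 0.0281), and its 5 Omomyc arrays (11.26 to 12.08) lay below its 5 PBS arrays (12.30 to 12.64). KIF18A, a kinesin that dampens chromosome movements at metaphase, changed by -0.88 ± 0.27 (adjusted p = 0.0358), with overlapping groups.

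CDC25B was the 1 gene that rose in H1299. It read 11.16, 11.17, 10.80, 10.11 and 10.44 with PBS and 12.18, 12.04, 11.74, 11.87 and 11.58 with Omomyc. No Omomyc array was as low as a PBS array, and the change of 1.15 ± 0.22 (adjusted p = 0.000637), a 2.21-fold higher level, was 1.02, 0.91 and 1.45 in runs 1, 2 and 3. With Omomyc its mean was still below the PBS level of the other lines.

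Over the 51 genes, 8 were lower on every Omomyc array than on any PBS array in H1299 and 2 higher (CDC25B and NEK2), where 4.09% and 3.91% of all genes were. Leaving out any single H1299 array left the calls of NDC80, SPC25, MKI67 and CDC25B in place. The other 5 falls lost their calls in some of these fits. MYBL2 lost its call without PBS replicate 2 or Omomyc replicate 1 or 5 (adjusted p up to 0.0852), and DLGAP5 without PBS replicate 4 or 5 or Omomyc replicate 3 or 5 (up to 0.101). BIRC5 lost it without PBS replicate 1, 2 or 3 or Omomyc replicate 4 or 5 (up to 0.12), and ASPM without PBS replicate 1, 2 or 3 or Omomyc replicate 3, 4 or 5 (up to 0.117). KIF18A lost it without any of PBS replicates 1 to 4 or Omomyc replicates 3 to 5 (up to 0.113). The count of 9 genes became 5 without PBS replicate 2 and 4 without Omomyc replicate 5.

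The core genes of the CDK1 switch and the APC/C did not pass the test in H1299. CCNB1, cyclin B1, read 11.38, 12.23, 12.61, 11.23 and 11.26 with PBS and 11.15, 11.75, 11.50, 10.93 and 10.77 with Omomyc. The groups overlapped and the change was -0.52 ± 0.29 (95% interval -1.11 to 0.07, adjusted p = 0.344), which passed once the run was a block (adjusted p = 0.0324) but not with the replicate block (0.145). CDK1 changed by -0.31 (interval -0.85 to 0.24), PLK1 by 0.08 (-0.45 to 0.61), AURKA by -0.17 (-0.59 to 0.25) and CCNA2, cyclin A2, by 0.02 (-0.42 to 0.47). CDC20 changed by -0.17 (-0.76 to 0.42) and its APC/C partner gene UBE2C by -0.02 (-0.47 to 0.44). These intervals leave room for changes of about the size seen in DLGAP5 for CDK1 and CDC20, and for less in UBE2C, PLK1 and CCNA2. With the run as a block BUB1B (-0.72 ± 0.17), KIF4A (-0.86 ± 0.17), KIF14, KIF23, PRC1, RACGAP1, TPX2 and SPC24 also fell beside CCNB1. With the replicate block instead, BUB1B, KIF4A, KIF14, KIF23 and RACGAP1 fell, whereas CCNB1 (adjusted p = 0.145), TPX2 (0.165), PRC1 (0.0811) and SPC24 (0.0806) did not pass. BUB1B is the kinase-like component of the checkpoint complex, and KIF4A, PRC1, KIF23 and RACGAP1 build the midzone of the anaphase spindle.

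**Figure D3:**
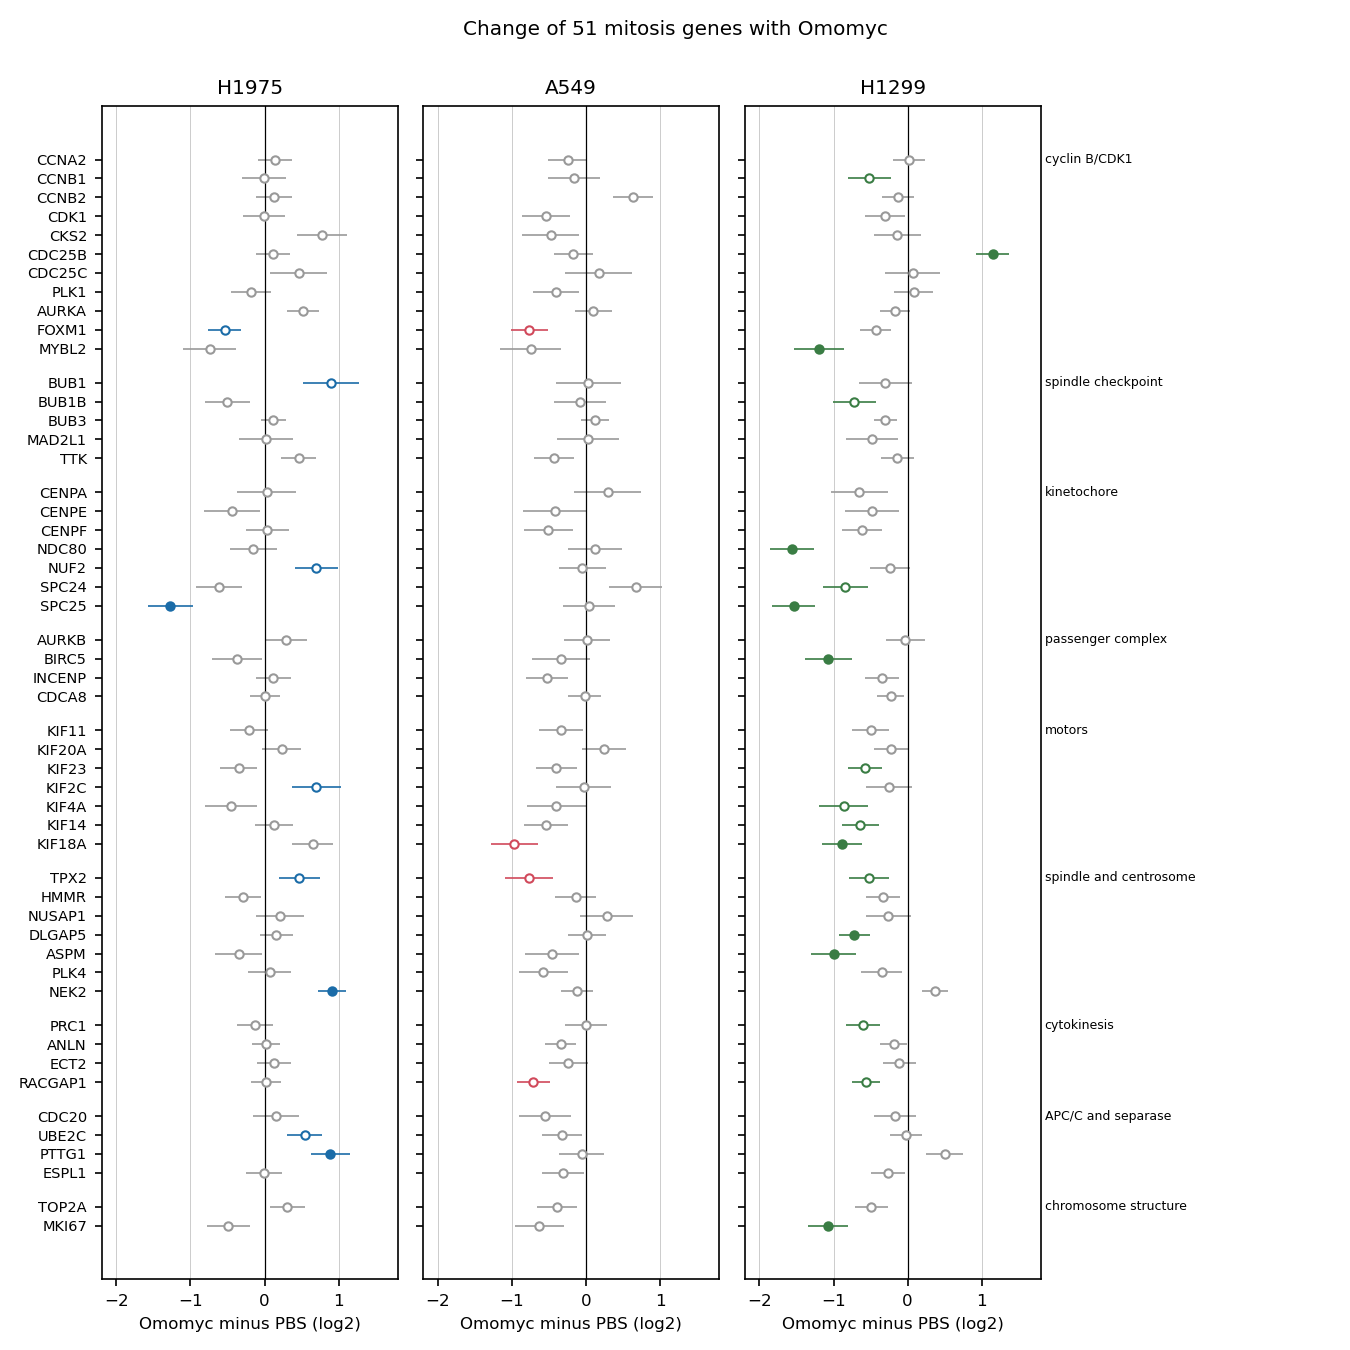
Omomyc minus PBS (log2, horizontal axes) of all 51 genes, ordered by role, in H1975, A549 and H1299. Points are changes of the fit without a block and bars their standard errors; filled points have an adjusted p under 0.05 there, coloured open points only with the run as a block, and grey points in neither. H1299 has 45 of 51 points below 0 with CDC25B at 1.15 and NDC80 at -1.56, while H1975 has 32 above 0.

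In H1975, 2 of the 51 genes rose with Omomyc and 1 fell, where 5.57% of all genes rose and 6.28% fell. The median change was 0.07, beside 0.00 for all genes, and 32 changes were above 0. The mean of the 51 genes was 10.04 to 10.58 on the PBS arrays and 10.03 to 10.75 on the Omomyc arrays. With the run as a block 7 rose and 2 fell, beside 9.37% and 9.85% of all genes.

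NEK2, a centrosome kinase that separates the centrosomes, read 8.41, 8.64, 8.46 and 8.38 on the H1975 PBS arrays and 9.30, 9.50, 9.36, 9.70 and 9.06 on the Omomyc arrays. Every Omomyc array was above every PBS array, the change was 0.91 ± 0.19 (adjusted p = 0.0014), and it was 0.99, 0.98 and 0.68 in runs 1, 2 and 3. PTTG1, which encodes securin, the inhibitor of separase, read 11.13, 10.37, 10.09 and 10.30 with PBS and 11.49, 11.14, 11.49, 11.53 and 11.19 with Omomyc. The groups did not overlap, although PBS replicate 1 nearly reached the lowest Omomyc array, and the change was 0.89 ± 0.26 (adjusted p = 0.0216). In run 1, which holds that replicate, the change was 0.18, against 1.28 and 0.88 in runs 2 and 3. NEK2 and PTTG1 were the 2 genes of the 51 higher on every Omomyc array in H1975, and 0 were lower on every one (5.18% and 5.35% of all genes). PTTG1 lost its call without PBS replicate 2, 3 or 4 (adjusted p up to 0.0872).

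SPC25 fell in H1975 by 1.27 on the log2 scale (SE 0.31, adjusted p = 0.005). It read 5.60, 7.40, 7.34 and 5.78 with PBS and 5.45, 4.79, 5.64, 5.08 and 5.31 with Omomyc, so the PBS arrays were split and the lower pair met the Omomyc arrays. The high PBS arrays were both in run 2, where the change was -2.01, against -0.48 and -0.47 in runs 1 and 3. All Omomyc arrays and the lower PBS pair were in the range of the background probe sets. NDC80 was at -0.15 ± 0.32 (adjusted p = 0.887).

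BUB1, a checkpoint kinase of the kinetochore, was higher in run 2 than in the other runs on the PBS arrays. It read 8.98, 10.40, 9.71 and 8.65 with PBS and 9.85, 10.13, 11.05, 11.03 and 9.64 with Omomyc in H1975. The groups overlapped and the change of 0.90 ± 0.38 did not pass (adjusted p = 0.144), but it was 1.00, 0.99 and 0.98 within runs 1, 2 and 3 and passed once the run was a block (0.98 ± 0.18, adjusted p = 0.000188). NUF2, KIF2C, TPX2 and UBE2C also rose with the run as a block, by 0.75, 0.69, 0.51 and 0.54, and FOXM1 fell by 0.55. CCNB1, CDK1 and PLK1 were at -0.01 (95% interval -0.63 to 0.62), -0.01 (-0.59 to 0.57) and -0.18 (-0.74 to 0.39). AURKA was at 0.52 (0.08 to 0.96, adjusted p = 0.134).

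In A549 none of the 51 genes passed the limma test, where 0.916% of all genes rose and 0.277% fell. At an unadjusted p under 0.05 in that fit there were 5 of 51. The share of all genes at this looser threshold is not given here, so that count shows no excess. The median change was -0.25, beside 0.04 for all genes, and 37 of 51 changes were below 0. The mean of the 51 genes was 9.28 to 9.88 on the PBS arrays and 9.18 to 9.63 on the Omomyc arrays, and within runs 1 and 2 the median changes were -0.35 and -0.28. With the run as a block 4 fell and none rose (1.13% and 1.71% of all genes), the 4 being FOXM1, KIF18A, TPX2 and RACGAP1. With the replicate block none did (0.475% fell and 0.803% rose).

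FOXM1, the forkhead factor of G2-M transcription, read 11.13, 11.52, 11.36 and 11.21 on the A549 PBS arrays and 10.20, 10.37 and 11.03 on the Omomyc arrays. The groups did not overlap, and the change of -0.77 ± 0.25 did not pass without a block (adjusted p = 0.192, 0.014 with the run as a block). RACGAP1, a GTPase-activating protein of the central spindle, read 12.61, 12.58, 12.39 and 12.24 against 11.49, 11.74 and 11.99, again without overlap (-0.71 ± 0.22, adjusted p = 0.153, 0.0273 with the run as a block). TOP2A was also lower on all Omomyc arrays and CCNB2, cyclin B2, higher on all of them (0.63 ± 0.27, adjusted p = 0.436). Of all genes 3.60% were lower and 5.79% higher on every Omomyc array in this line. CCNB1, CDK1 and PLK1 were at -0.16 (95% interval -0.87 to 0.54), -0.54 (-1.20 to 0.12) and -0.40 (-1.04 to 0.24), the widest intervals of the 3 lines.

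**Figure D4:**
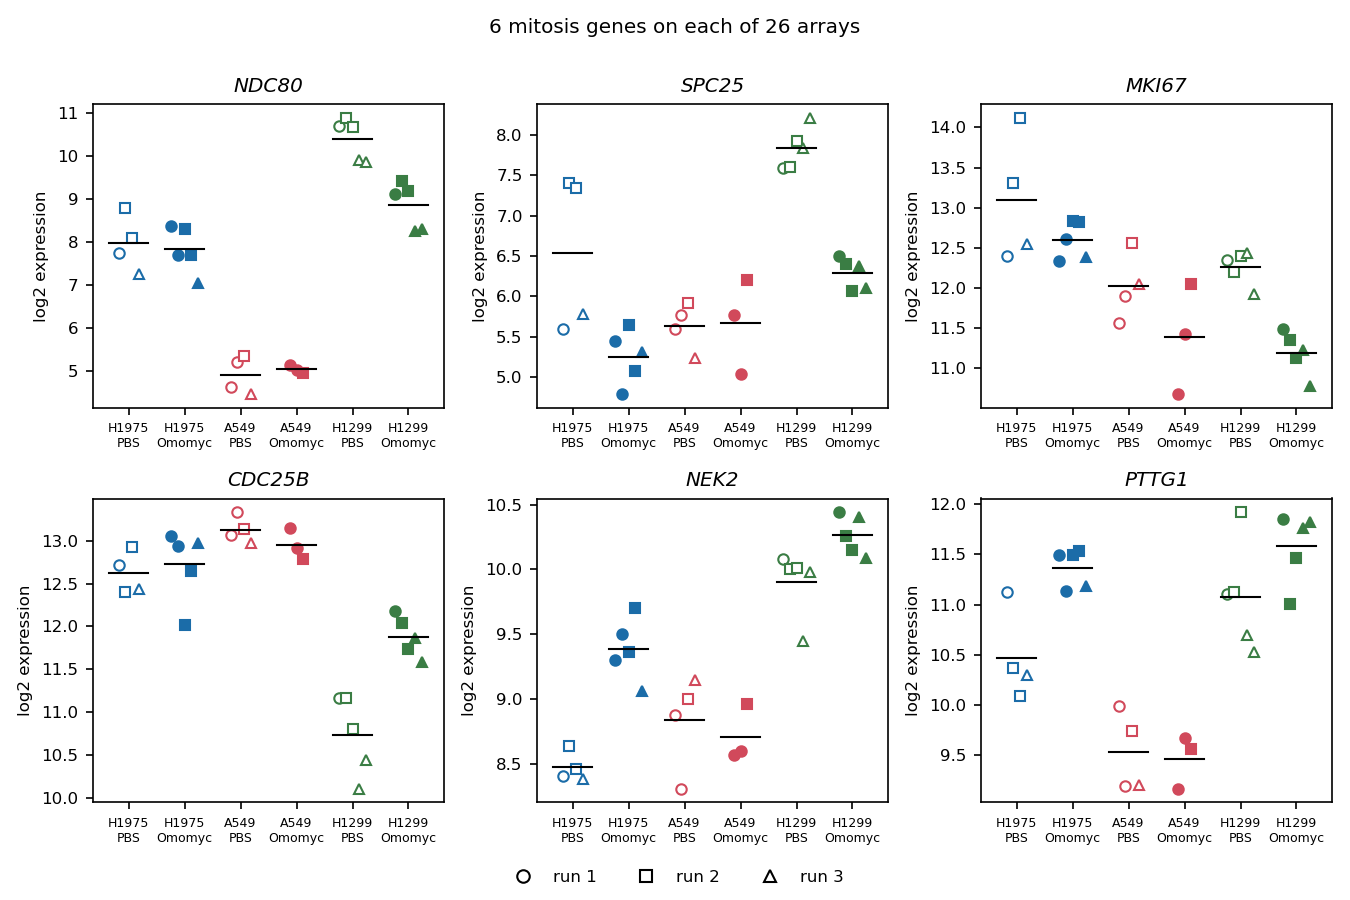
Log2 expression (vertical axes) of 6 genes on each of the 26 arrays, by line and treatment. Open symbols are PBS and filled symbols Omomyc, the shape gives the run, and lines are group means. NDC80 and MKI67 with Omomyc lie below PBS in H1299 without overlap, CDC25B lies above, NEK2 and PTTG1 are higher in H1975 with Omomyc, and the 2 high SPC25 arrays of H1975 with PBS are both of run 2.

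The change with Omomyc differed between the lines for 3 of the 51 genes in an F test over both interaction contrasts, where 8.18% of all genes passed. CDC25B (adjusted p = 0.0173) rose in H1299 and was at 0.11 in H1975 and -0.17 in A549, and its change in H1299 was larger by 1.04 ± 0.31 than in H1975 (-1.04 as H1975 minus H1299, adjusted p = 0.047) and by 1.32 than in A549 (-1.32 ± 0.34 as A549 minus H1299, adjusted p = 0.0306). KIF18A (adjusted p = 0.013) was at 0.65 in H1975, -0.97 in A549 and -0.88 in H1299. H1975 differed from A549 by 1.62 ± 0.43 (adjusted p = 0.0251) and from H1299 by 1.52 ± 0.39 (adjusted p = 0.0159). On the arrays KIF18A read 11.70, 11.83, 12.27 and 10.95 with PBS and 12.52, 12.66, 12.26, 12.08 and 12.16 with Omomyc in H1975, 10.59, 10.66, 10.79 and 10.17 against 9.05, 9.37 and 10.33 in A549, and 12.08, 11.50, 11.60, 11.57 and 11.30 against 11.39, 11.28, 10.48, 10.21 and 10.30 in H1299. The groups overlapped in each line. Over the 51 genes, 2 changed more in H1975 than in A549 and 0 less (1.92% and 2.70% of all genes), 1 more and 1 less than in H1299 (2.61% and 3.09%), and 0 more and 1 less in A549 than in H1299 (1.40% and 1.07%).

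NDC80 (adjusted p = 0.0283) fell in H1299 and was at -0.15 in H1975 and 0.12 in A549, where it lay in the range of the background probe sets with PBS. Its single contrasts against H1299 had adjusted p = 0.0555 for H1975 and 0.0526 for A549, and with the run as a block 0.000517 and 0.00158. The F test lost the call of NDC80 without A549 Omomyc replicate 1, H1299 PBS replicate 1, 2 or 3 or H1299 Omomyc replicate 4 or 5 (adjusted p up to 0.0644). NEK2 changed more in H1975 than in A549 (1.03 ± 0.29, adjusted p = 0.0347) but not more than in H1299 by the test (0.55 ± 0.26, adjusted p = 0.296), and its F test did not pass (adjusted p = 0.057). With the run as a block 12 genes differed (17.4% of all genes), with BUB1, NUF2, SPC24, SPC25, TPX2, DLGAP5, NEK2, UBE2C and TOP2A added. TPX2, which activates Aurora A on the spindle, was at 0.47 in H1975, -0.77 in A549 and -0.52 in H1299. Without A549 PBS replicate 2 the count without a block was 5.

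Averaged over the 3 lines, a contrast chosen after the data had been seen, 7 of the 51 genes fell and 1 rose, where 5.36% and 5.81% of all genes did. The factor genes of the late cell cycle program were both among them. FOXM1 changed by -0.54 in H1975, -0.77 in A549 and -0.43 in H1299, passing in no single line, and by -0.58 ± 0.13 on average (adjusted p = 0.00382). MYBL2 changed by -0.74, -0.75 and -1.20, and by -0.90 ± 0.21 on average (adjusted p = 0.00509). Within runs 1, 2 and 3 MYBL2 was at -1.25, -0.10 and -1.37 in H1975. In A549 it was at -1.39 and 0.07 in runs 1 and 2. MKI67 changed by -0.49, -0.63 and -1.07, with an average of -0.73 ± 0.17 (adjusted p = 0.00489). Within runs 1, 2 and 3 MKI67 was at 0.08, -0.89 and -0.15 in H1975, so its change there came mostly from run 2. In A549 it was at -0.68 and -0.51 in runs 1 and 2. SPC25 had -0.92 ± 0.18 on average (adjusted p = 0.000911), which rests on H1975 and H1299, since A549 was at 0.04.

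RACGAP1 (-0.42 ± 0.12, adjusted p = 0.0192), ASPM (-0.60 ± 0.19, 0.038) and KIF23 (-0.44 ± 0.15, 0.0488) also fell on average and NEK2 rose (0.38 ± 0.11, 0.0255). KIF23 lost its call in 22 of the 26 fits that each left out 1 array and ASPM in 15. NEK2 lost it without A549 PBS replicate 2 or A549 Omomyc replicate 3, and RACGAP1 without A549 Omomyc replicate 1 (adjusted p up to 0.0687 and 0.0577). Without A549 Omomyc replicate 1 the count of 8 became 5. FOXM1, MYBL2, MKI67 and SPC25 kept theirs in all 26. With the run as a block 15 fell and 2 rose (9.67% and 8.70% of all genes), BUB1B, CENPF, NDC80, BIRC5, KIF11, KIF4A, KIF18A and TPX2 added to the falls and PTTG1 to the rises.

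A longer list of other mitosis genes, 124 of which were measured, was tested in the same fit. In H1975 4 rose and 12 fell (median -0.13), in A549 none passed (median -0.07), and in H1299 1 rose and 23 fell (median -0.32). Over all genes 5.57% rose and 6.28% fell in H1975 and 4.35% and 4.52% in H1299, so the rises in both lines were fewer than that share of 124 genes. The list covers subunits of the APC/C, condensin and cohesin, further kinetochore and checkpoint genes and the MuvB partners. In H1299, 6 of its 23 kinetochore genes fell, CENPU by 2.21 (SE 0.25, adjusted p = 5.29e-07) and CENPK by 1.55 (SE 0.23, adjusted p = 4.91e-05), both of the inner kinetochore network, and HJURP, the chaperone that loads CENPA, rose by 0.54 ± 0.16 (adjusted p = 0.0347). NCAPG, a condensin subunit, changed by -1.60 ± 0.22 (adjusted p = 1.36e-05). In H1975 the cohesin gene SMC1A changed by -1.24 ± 0.23 (adjusted p = 0.000328), the E2F partner gene TFDP1 by -1.09 ± 0.22 (adjusted p = 0.00104) and ZWINT, a kinetochore gene that helps recruit checkpoint proteins, by -1.53 ± 0.31 (adjusted p = 0.00113). WEE1, the kinase that holds CDK1 inactive, rose in H1975 by 1.22 ± 0.29 (adjusted p = 0.00405), MAD1L1, the checkpoint partner of MAD2, by 1.00 ± 0.22 (adjusted p = 0.00235) and RBL2, the p130 protein of the repressive DREAM complex, by 0.87 ± 0.24 (adjusted p = 0.0158).

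The 23 genes of the MCM helicase and origin licensing, which act before and at the start of S phase, are given for scale. In H1975 14 fell and none rose (median -1.22), in H1299 15 fell and none rose (median -1.39), and in A549 none passed (median -0.30). The same background of 5.57% higher and 6.28% lower in H1975, 4.35% and 4.52% in H1299, and 0.916% and 0.277% in A549 applies to these lists. Among 9 p53 target genes, CDKN1A, the p21 inhibitor of cyclin-dependent kinases, rose by 1.63 ± 0.30 in H1975 (adjusted p = 0.000373) and by 1.10 ± 0.29 in H1299 (adjusted p = 0.0121). In all, 2 of the 9 rose and 1 fell in H1975, 1 rose and 2 fell in H1299, and none passed in A549. The medians of the 51 mitosis genes in the same lines were 0.07, -0.35 and -0.25 for H1975, H1299 and A549.

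**Figure D5:**
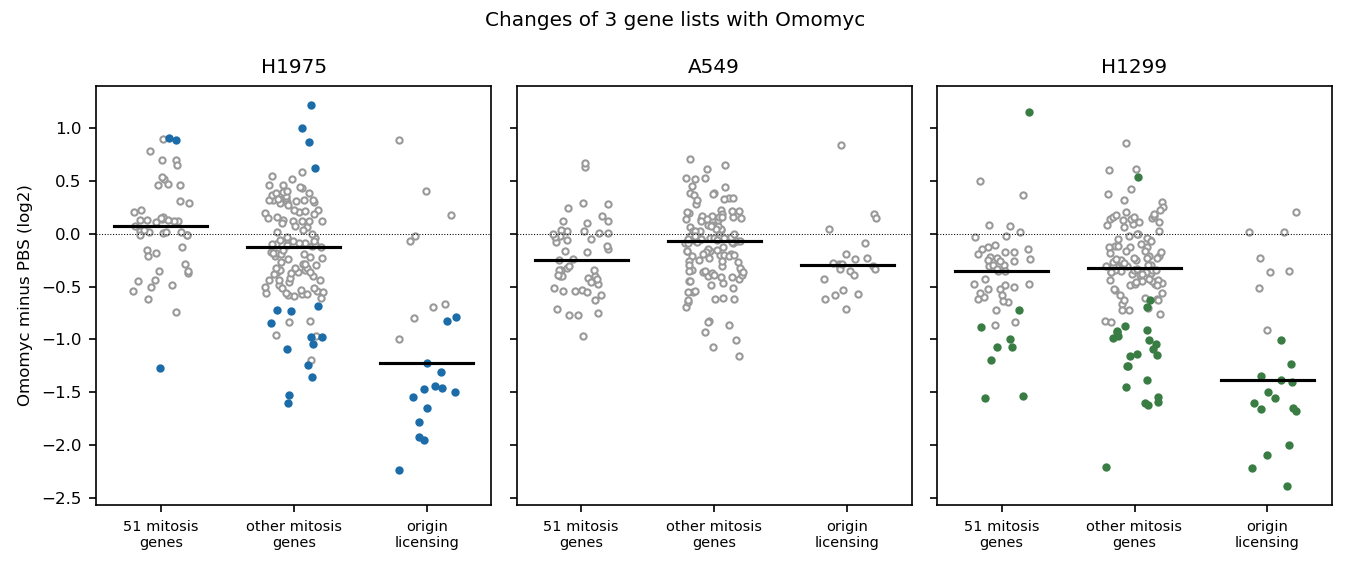
Omomyc minus PBS (log2, vertical axis) of each gene of 3 lists in H1975, A549 and H1299: the 51 mitosis genes, 124 other mitosis genes and 23 licensing genes. Points are genes, spread sideways for legibility, filled where the adjusted p is under 0.05, and bars are medians. The licensing medians are -1.22, -0.30 and -1.39, and those of the 51 genes 0.07, -0.25 and -0.35.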

How the data were processed

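Biotin-labelled material made from the RNA of 26 samples was hybridised to single-colour arrays. The authors deposited log2 values, and the submitters' processing notes name RMA and Partek without versions. The values ran from 1.35 to 19.9, and whether a further scaling followed RMA is unknown. Log2 changes and folds are therefore those of the deposited scale. RMA corrects background, quantile-normalizes and summarises probes; the sources used here do not say whether all arrays were processed together. Of 24351 features, 17709 had 1 gene symbol, 0 several and 6642 none, giving 17687 genes; a gene with several probe sets took its highest mean.

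limma 3.58.1 in R 4.3.3 (lmFit, eBayes) fitted 1 coefficient per group to all arrays without a block (20 residual degrees of freedom), with Benjamini-Hochberg adjustment over all genes. The fit was tested on simulated data. Runs are 3 clusters (average linkage) of the sorted array values. Deviations of same-numbered PBS and Omomyc arrays from their group means correlated at 0.26 to 0.39 in H1299 and 0.11 to 0.2 in A549. That was over 0.1 in every pair there and in 1 of 4 pairs in H1975. The runs were not removed first, and both arrays of every H1299 and A549 pair were of the same run. Pairing by number and a shared run therefore cannot be told apart in those lines. In H1975 pairs 1 and 3 shared a run (0.33 and 0.031), and pairs 2 and 4 did not (-0.15 and -0.2). With the replicate block, differences between runs thus enter the Omomyc change in H1975 and the F test.

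The 51 genes, the other lists, the motifs and the tests were chosen with earlier results of these data known. Named genes are those called in any line with or without the run block or in the F test, the 3 highest and 3 lowest changes of each line, the extremes of the PBS comparisons, fixed members, and up to 3 called genes per direction and line of the other mitosis list. The alternatives were another normalization, a filter on dim genes, blocks, single runs, a line fitted alone, a fold minimum and leaving out each array.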

Additional observations from a re-analysis of the deposited data

Results flagged for a closer look

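In 5 of 80 groups of values examined, 1 array lay far from the rest, and chance gives about 1 in 20. The values were those of 16 genes in the groups of 4 or 5 arrays. These were the genes called without a block in a line, on average or in the F test, with CCNB1 and CDK1 added. NEK2 read 9.45 on H1299 PBS replicate 4, with the nearest other array at 9.98. FOXM1 read 10.38 on H1975 PBS replicate 4, with the nearest at 10.87. KIF23 read 13.87 on H1299 PBS replicate 1, with the nearest at 13.22. RACGAP1 read 12.01 on H1975 Omomyc replicate 5, with the nearest at 12.71, and CDK1 read 10.57 on H1975 PBS replicate 2, with the nearest at 10.06.

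The change with Omomyc differed between the lines for KIF18A (F test of the limma fit, adjusted p = 0.013), CDC25B (adjusted p = 0.0173) and NDC80 (adjusted p = 0.0283).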

How the results depend on the processing

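The H1975 median of 0.07 was -0.09 in run 3 alone, and the other medians of the change kept their direction. In H1975 the count of 3 changed genes was 9 with quantile normalization (7 higher, 2 lower), 7 with median centring (6 and 1), 6 with the replicate block, 9 with the run as a block, 1 with both blocks, 1 at a fold change of at least 2, and 0 in run 1 or run 3 alone. In A549 the count of 0 was 3 with quantile normalization (all lower) and 4 with the run block. In H1299 the 9 became 14 when the replicate number was a block, 18 when the run was, 16 with both and 0 in run 1 alone. The average over lines gave 17 in place of 8 with the run block and 1 in run 1 or run 2 alone. For the F test the 3 became 8 with quantile normalization, 6 with median centring, 5 without dim genes, 12 with the run block and 6 with the replicate block. The PBS difference of H1975 and A549 held 31 genes, 20 in run 2 alone and 19 in run 3 alone. A run alone has 1 or 2 arrays a group. The replicate block joins H1975 arrays of different runs in pairs 2 and 4. Its counts for H1975 and for the F test therefore carry run differences too. With the run block the share of all genes called also rose, for the F test from 8.18% to 17.4%. In H1975 it went from 5.57% higher and 6.28% lower to 9.37% and 9.85%. In H1299 it went from 4.35% higher and 4.52% lower to 7.73% and 8.17%. Where that share is not given, a larger count alone does not show a larger response of this gene set than of all genes. Leaving out 1 array gave 2 to 3 genes in H1975, 0 to 0 in A549, 4 to 10 in H1299, 5 to 9 on average, 2 to 5 in the F test, and at PBS 25 to 31, 31 to 34 and 40 to 43 (A549 against H1299). The medians ranged from 0.01 to 0.17, -0.37 to -0.17 and -0.47 to -0.27 in H1975, A549 and H1299.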
